A study of Homo sapiens with 6 samples.

Results

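Cadherins and their catenins were followed in 10 genes, selected by their symbols among the 21293 genes of the deposited table, and each was present there. They are the cadherins CDH1 (E-cadherin), CDH2 (N-cadherin), CDH3 (P-cadherin), CDH4 (R-cadherin), CDH6 (K-cadherin), CDH11 (OB-cadherin) and CDH13 (T-cadherin), and the catenins CTNNA1 (α-catenin), CTNNB1 (β-catenin) and CTNND1 (p120-catenin). Poly(A) RNA was sequenced from H2087-LCC cells, a latency-competent population selected in mice from the human lung adenocarcinoma (LUAD) line H2087, in 3 groups of 2 libraries. The cells were kept in medium with 2% serum and received 2.5 μM SB505124 for 3 days (SB), 100 pM TGFβ for 3 days or 100 pM TGFβ for 7 days. SB505124 is a small-molecule blocker of the kinase of the TGFβ type I receptor, and the SB group is the control here. SB cells were sequenced at 3 days only, so time in culture and treatment cannot be told apart in the comparison of 7 days of TGFβ with SB. Between 7 days and 3 days of TGFβ, time in culture and length of treatment cannot be told apart either. The study describes the 2 libraries of a group as technical replicates, so the p-values measure the spread between libraries and need not cover the spread between cultures.

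Classical cadherins span the cell membrane and bind the same or a related cadherin on a neighboring cell. Inside the cell, p120-catenin binds the part of the tail next to the membrane and steadies the cadherin at the surface, β-catenin binds the far end of the tail, and α-catenin links β-catenin to actin. CDH13 is the exception among the 10 genes, since it is held on the membrane by a lipid anchor and has no tail for catenins. In the epithelial-to-mesenchymal transition (EMT), epithelial cells are known to lose E-cadherin, and many gain N-cadherin. β-Catenin that is not bound to cadherins is degraded unless WNT signaling protects it, and then acts in the nucleus with TCF and LEF factors.

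Under TGFβ, H2087-LCC cells lost nearly all CDH1 RNA, and CDH11 and CDH3, the cadherins with the highest levels among the members, fell to 0.379 and 0.454 of their SB mean at 3 days. CDH4 was the only cadherin member that rose, from a low level, and CDH2 was at 0 or 1 in each of the 6 libraries. CTNNA1 and CTNNB1 stood above each member cadherin per kb of exon in all 6 libraries. Levels are normalized counts, that is, reads per gene scaled by the authors for library size and rounded to whole numbers. The sums over all genes were 34306283 to 36340734 per library, and from the spacing of low values 1 read was worth 0.896 to 1.10 normalized counts, an estimated 32000000 to 40000000 assigned reads per library. The epithelial markers were present in all 6 libraries, while 5 blood cell markers together summed to 9 to 24 and 5 endothelial markers to 158 to 306 per library.

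Of the 10 members, 7 averaged 10 normalized counts or more over the libraries and entered the test with limma on log2(normalized count + 1), with Benjamini-Hochberg adjustment over 14395 genes and a threshold of 0.05. CDH2, CDH6 and CDH13 did not reach that mean. Since 1 is added before the logarithm, the log2 values understate the changes of low genes such as CDH4 and of CDH1 at 7 days. After 3 days of TGFβ, 4 members were past the threshold relative to SB (CDH1, CDH3 and CDH11 lower, CDH4 higher). This is 57.1% of the 7, where 29.0% of all genes tested were past it, 14.0% lower and 14.9% higher. After 7 days, 5 members were past it (the same 3 lower, CDH4 and CTNND1 higher), or 71.4% of the 7. The share of all genes was 54.5%, 26.9% lower and 27.7% higher. Between 7 days and 3 days, CDH1 was lower and CDH4 and CTNNB1 were higher. These 3 members are 42.9% of the 7, near the 33.2% of all genes (16.2% lower and 17.0% higher). CDH4 reached the mean of 10 only through the TGFβ libraries. The median log2 fold change of the 7 members was -0.23, -0.10 and 0.05 in these 3 comparisons, and that of all genes tested -0.02, -0.00081 and 0.02. Both comparisons with SB share the SB libraries.

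**Figure D1:**
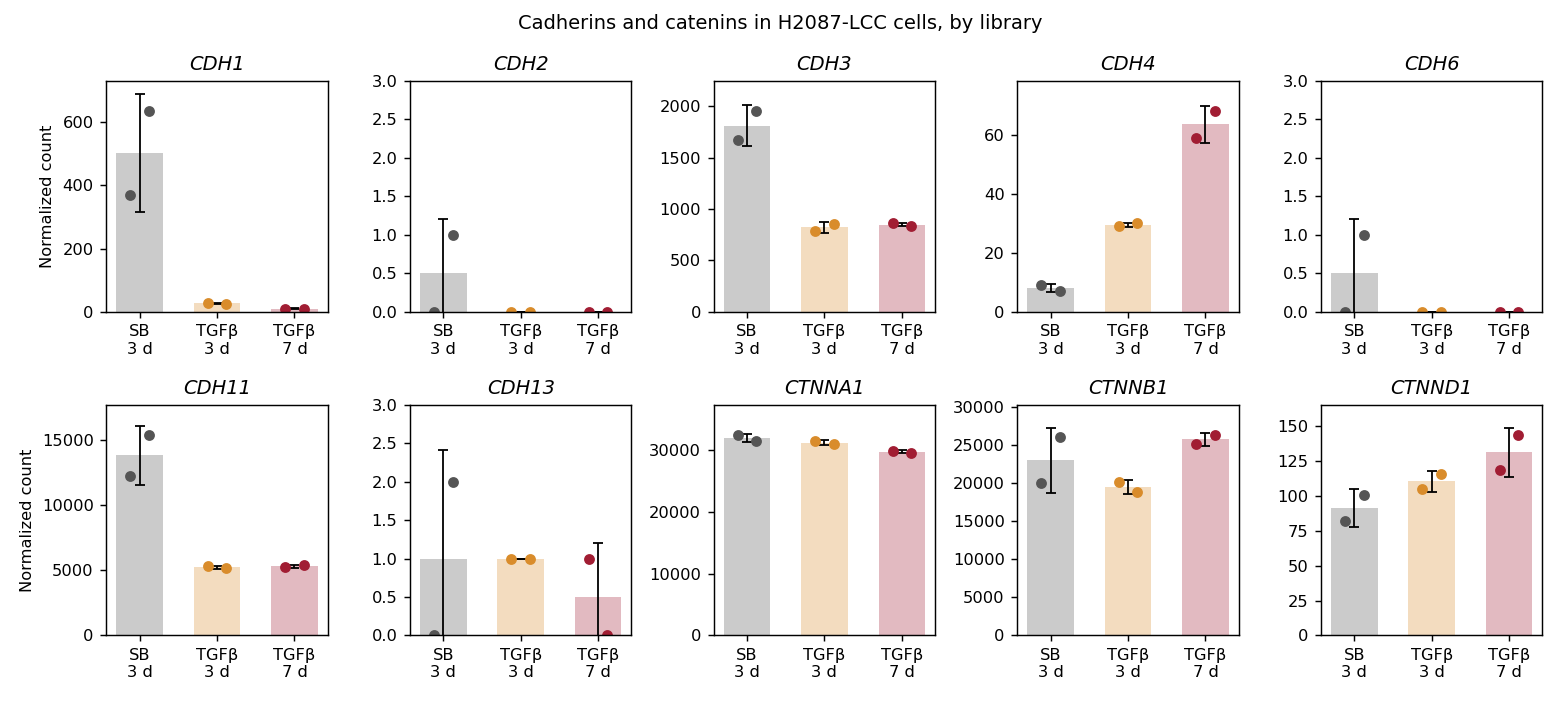
Normalized counts of the 10 members in H2087-LCC cells, 1 panel per gene, with points for the 2 libraries of each group, bars for their mean and error bars for the SD (n = 2). CDH1, CDH3 and CDH11 stand lower in the TGFβ libraries than in SB, CDH4 stands higher, and CDH2, CDH6 and CDH13 do not pass 2 normalized counts.

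Among the cadherins of the epithelial type, CDH1 on chromosome 16 of GRCh37 (68771195 to 68869440, plus strand) encodes E-cadherin, the cadherin of epithelial adherens junctions. It had 371 and 635 normalized counts in the SB libraries, 28 and 24 after 3 days of TGFβ, and 10 and 9 after 7 days. The groups did not overlap, although the SB libraries themselves lay far apart. The mean was 503 ± 187 (SD, n = 2) in SB, 19.3 times that at 3 days and 52.9 times that at 7 days. On the log2 scale the difference from SB was -4.18 after 3 days (standard error 0.29, limma adjusted p = 7.11e-07) and -5.54 at 7 days (adjusted p = 2.78e-08). CDH1 fell by a further 1.36 on the log2 scale between 3 days and 7 days (adjusted p = 0.00421). Of 5 epithelial markers, EPCAM had 10180 and 9106 normalized counts in SB, 6610 and 5994 at 3 days, and 2988 and 3277 at 7 days. NKX2-1, the lung lineage factor, had 2784 and 2908 in SB and from 712 to 857 under TGFβ. EPCAM, NKX2-1 and the keratin gene KRT18 differed from SB at 7 days by -1.62, -1.73 and -0.56 on the log2 scale (limma adjusted p from 5.07e-08 to 0.000144). The keratin genes KRT8 and KRT19 did not pass the threshold at 7 days (0.11, 95% interval from -0.13 to 0.35, and 0.24, 95% interval from -0.13 to 0.61). The 5 genes summed to 98523 to 108497 in SB, 83413 to 92242 at 3 days and 77895 to 88056 at 7 days, and their part in the CDH1 values was not tested. In these bulk libraries, fewer cells with CDH1 RNA and less CDH1 RNA per cell cannot be told apart.

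CDH3, which encodes P-cadherin of basal epithelial cells, lies next to CDH1 on the same strand of chromosome 16 (68670092 to 68761371). It had 1670 and 1954 normalized counts in SB, 786 and 858 at 3 days, and 862 and 836 at 7 days. Both TGFβ groups lay under both SB libraries and overlapped each other. On the log2 scale the difference from SB was -1.14 after 3 days (standard error 0.11, limma adjusted p = 1.31e-05) and -1.09 at 7 days (adjusted p = 8.48e-06). Between 7 days and 3 days it was 0.05, with a 95% interval from -0.20 to 0.29 (adjusted p = 0.774). So the neighbor genes CDH1 and CDH3 were both lower under TGFβ, with ratios of SB to 7 days of 52.9 for CDH1 and 2.13 for CDH3.

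Among the cadherins that EMT studies group with mesenchymal cells, CDH11 had the highest level. CDH11 on chromosome 16 (64977656 to 65160015, minus strand) encodes OB-cadherin, a type II cadherin known from osteoblasts and other mesenchymal cells. It had 12245 and 15425 normalized counts in SB, 5318 and 5158 at 3 days of TGFβ, and 5223 and 5403 at 7 days. It was therefore high in cells under receptor inhibition and lower in each of the 4 TGFβ libraries. On the log2 scale the difference from SB was -1.39 after 3 days (standard error 0.10, limma adjusted p = 1.32e-06) and -1.37 at 7 days (adjusted p = 6.48e-07). From 3 days to 7 days the difference was 0.02, with a 95% interval from -0.21 to 0.25 (adjusted p = 0.899).

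CDH4 on chromosome 20 (59827317 to 60515673, plus strand) encodes R-cadherin, a type I cadherin first described in retina. It had 9 and 7 normalized counts in SB, 29 and 30 at 3 days, and 59 and 68 at 7 days. The 3 groups did not overlap. The means were 8 ± 1.41, 29.5 ± 0.707 and 63.5 ± 6.36 (SD, n = 2), a ratio to SB of 3.69 at 3 days and 7.94 at 7 days. Both ratios rest on the low SB mean of 8. On the log2 scale the difference from SB was 1.77 after 3 days (standard error 0.30, limma adjusted p = 0.00100) and 2.85 at 7 days (adjusted p = 1.19e-05). The further rise of 1.08 from 3 days to 7 days had an adjusted p of 0.0186, and in each of the 4 fits that left out a 3-day or 7-day library it was not past the threshold (adjusted p from 0.0745 to 0.141).

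CDH2 (N-cadherin), the cadherin most often used as a mesenchymal marker, had 1 normalized count in the second SB library and 0 in the other 5. CDH6 had the same values, and CDH13 had from 0 to 2 in each library. At these levels no difference between the groups was detectable, and no fold is given. The remaining cadherins of the classical and atypical families were listed in 12 of 16 cases, of which 3 were tested. CDH24, a type II cadherin that binds catenins, was the only one of these 3 past the threshold. It had 1086 and 1576 normalized counts in SB, 649 and 828 at 3 days, and 1024 and 888 at 7 days. Its log2 fold change against SB was -0.83 (limma adjusted p = 0.00331) and -0.46 (adjusted p = 0.0407) in that order of time points. CDH23, known from hair cells of the inner ear, and CDH26 had log2 fold changes of -0.85 and -0.05 at 3 days (adjusted p = 0.0657 and 0.951). CDH5 (VE-cadherin of endothelium), not tested at a mean under 10, had 14 and 20 normalized counts in SB and from 0 to 5 in the TGFβ libraries.

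The promoters of CDH2, CDH4, CTNNA1 and CTNNB1 were matched in the RefSeq table, with 9 annotated starts, and those of CDH1, CDH3, CDH6, CDH11, CDH13 and CTNND1 were not. Shown are the 250 bases before the outermost annotated start of CDH2, which gave almost no reads, and of CTNNB1, which gave many, from RefSeq on GRCh38.p14, 5′ to 3′ on the strand of the gene, with CG dinucleotides in capitals. The CDH2 stretch is chr18:28177131-28177380 (minus strand) and the CTNNB1 stretch is chr3:41199255-41199504 (plus strand).
CDH2: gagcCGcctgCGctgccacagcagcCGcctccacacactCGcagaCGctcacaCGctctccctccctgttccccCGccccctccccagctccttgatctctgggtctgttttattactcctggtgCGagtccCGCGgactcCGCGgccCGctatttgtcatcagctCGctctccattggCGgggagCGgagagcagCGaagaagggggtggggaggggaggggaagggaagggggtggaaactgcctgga
CTNNB1: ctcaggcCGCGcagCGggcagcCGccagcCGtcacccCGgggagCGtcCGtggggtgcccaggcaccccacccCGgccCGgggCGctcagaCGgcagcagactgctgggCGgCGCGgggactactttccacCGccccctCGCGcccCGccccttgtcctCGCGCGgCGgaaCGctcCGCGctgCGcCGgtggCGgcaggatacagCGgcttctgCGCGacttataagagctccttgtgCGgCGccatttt
The CDH2 stretch holds 17 CG dinucleotides and is 66% G or C, and the CTNNB1 stretch holds 34 and is 74.4% G or C, where the medians over the 35116 starts of the table were 11 and 58%. Both starts thus lie above the median in G and C content and in CG dinucleotides. The E-box letters CAGGTG, or CACCTG on the other strand, which SNAI and ZEB factors are known to bind, were in 1 of the 9 member starts, an internal start of CDH4, against 17.5% of all starts in windows of the same length. That start lies 247160 bases inside the gene, and counts per gene do not show which start was used.

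Levels of different genes were compared per length, as normalized counts per kb of the union of the exons in GENCODE v44lift37. In SB, CDH11 had 922 and 1162 normalized counts per kb in its 2 libraries, CDH3 261 and 306, CDH1 61.1 and 105, and CDH4 1.20 and 0.932. The order CDH11, CDH3, CDH1, CDH4 held in both SB libraries with no overlap between neighbors. At 3 days, CDH1 (4.61 and 3.95 per kb) and CDH4 (3.86 and 3.99 per kb) overlapped, while per kb of the longest transcript CDH1 (5.82 and 4.99) stood above CDH4 (4.34 and 4.49). At 7 days, CDH4 (7.85 and 9.05 per kb) stood above CDH1 (1.65 and 1.48 per kb) in both libraries.

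The summed level of the 7 member cadherins per kb was 1246 and 1573 in SB, 532 and 531 at 3 days, and 538 and 548 at 7 days. The sum was lower in each of the 4 TGFβ libraries than in either SB library. CDH11 made up 73.9% ± 0.132 (SD, n = 2) of this sum in SB, 74.2% ± 1.47 after 3 days and 73.7% ± 0.764 after 7 days of TGFβ. In the same order, the CDH3 share was 20.2% ± 1.09, 24.2% ± 1.54 and 24.5% ± 0.862. The CDH1 share was 5.77% ± 1.23 in SB, then 0.805% ± 0.0862 and 0.288% ± 0.0253, and that of CDH4 was 0.0777% ± 0.0261, 0.739% ± 0.0190 and 1.56% ± 0.135. These shares do not depend on the scaling of a library, and they are given as a description, since 0.333 is the smallest p of a two-sided exact permutation test on 2 against 2 libraries. When CDH24 and the other listed cadherins were counted in, CDH24 held 19.9% of the sum in SB, 26.7% at 3 days and 31.6% at 7 days, and CDH11 58.8%, 53.7% and 49.7%.

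**Figure D2:**
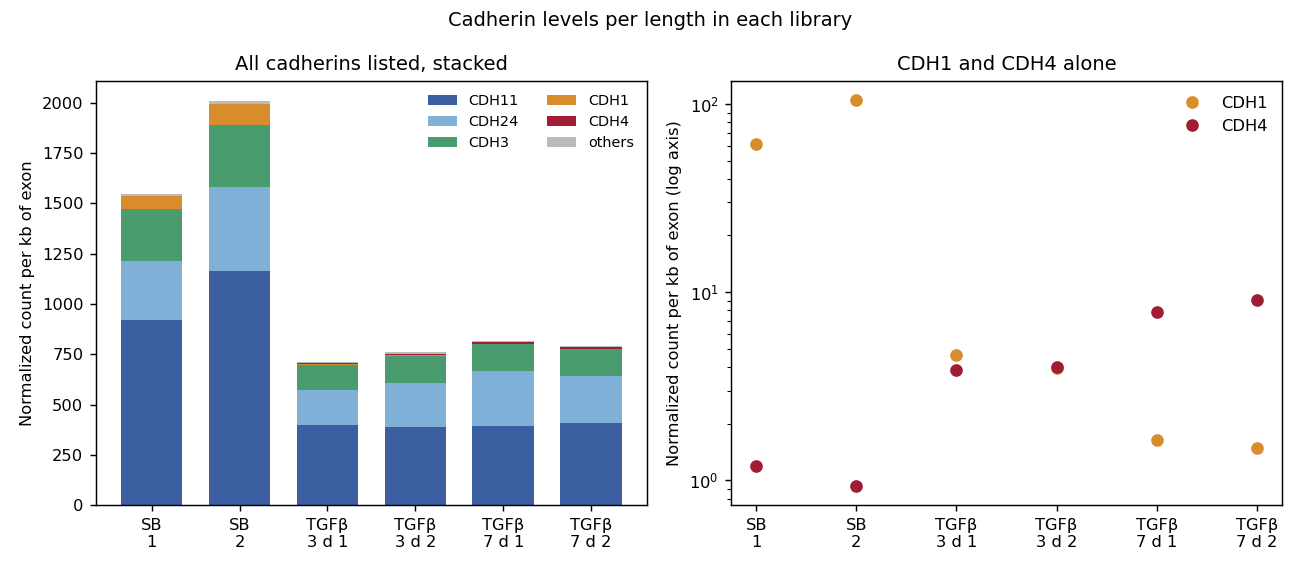
Normalized counts per kb of exon in each of the 6 libraries, stacked over the listed classical and atypical cadherins (left) and for CDH1 and CDH4 alone on a log axis (right). CDH11 is the largest layer in all 6 libraries, the stack is lower in the 4 TGFβ libraries than in SB, and CDH4 lies above CDH1 in both 7-day libraries.

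Against SB, the 3 catenins differed by -0.23 to 0.52 on the log2 scale at the 2 time points, where each of the 4 cadherins tested moved by more than 1 on that scale. CTNNA1 on chromosome 5 (137946656 to 138270723, plus strand) encodes αE-catenin, the link from β-catenin to actin. It had 32415 and 31495 normalized counts in SB, 31437 and 30888 at 3 days, and 29869 and 29551 at 7 days. The 3 groups did not overlap, yet lay within a narrow range. On the log2 scale the difference from SB was -0.04 after 3 days (95% interval from -0.20 to 0.13, limma adjusted p = 0.755) and -0.10 at 7 days (95% interval from -0.27 to 0.06, adjusted p = 0.251).

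CTNNB1 on chromosome 3 (41236232 to 41301587, plus strand) encodes β-catenin. It had 20035 and 26079 normalized counts in SB, 20107 and 18812 at 3 days, and 25150 and 26372 at 7 days. The first SB library lay within the range of the 3-day libraries and the second within that of the 7-day libraries. Against SB, the log2 difference was -0.23 after 3 days (95% interval from -0.47 to 0.01, limma adjusted p = 0.137) and 0.17 at 7 days (95% interval from -0.07 to 0.41, adjusted p = 0.207). Without the first SB library the value at 3 days was -0.42 (adjusted p = 0.00482), and without the second the value at 7 days was 0.36 (adjusted p = 0.004985). From 3 days to 7 days CTNNB1 rose by 0.41 (standard error 0.11, adjusted p = 0.0158). That call was lost without the second 3-day library (adjusted p = 0.0768), without the first or second 7-day library (0.0615 and 0.113), without the filter on low values (0.0995) and without the trend on expression in limma (0.0998).

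CTNND1 on chromosome 11 (57520715 to 57587018, plus strand) encodes p120-catenin. It had 82 and 101 normalized counts in SB, 105 and 116 at 3 days, and 119 and 144 at 7 days. The groups did not overlap, and the log2 fold change was 0.28 at 3 days (limma adjusted p = 0.336) and 0.52 at 7 days (adjusted p = 0.0456). In 9 of 18 fits CTNND1 was past the threshold at 7 days, and in the other 9 the adjusted p went up to 0.279. Per kb, CTNND1 was at 5.39 to 9.47 normalized counts and CTNNB1 at 1600 to 2243. In GENCODE v44lift37, 39.1% of the exon bases of CTNND1 are also exon of a gene on the same strand, ENSG00000288534, and 12.7% of another, ENSG00000254732. Neither identifier was matched, but the deposited table names genes by symbol. The search therefore cannot show whether those genes were counted. The annotation behind the deposited counts is not used here, and the part of these overlaps in the CTNND1 level was not tested.

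**Figure D3:**
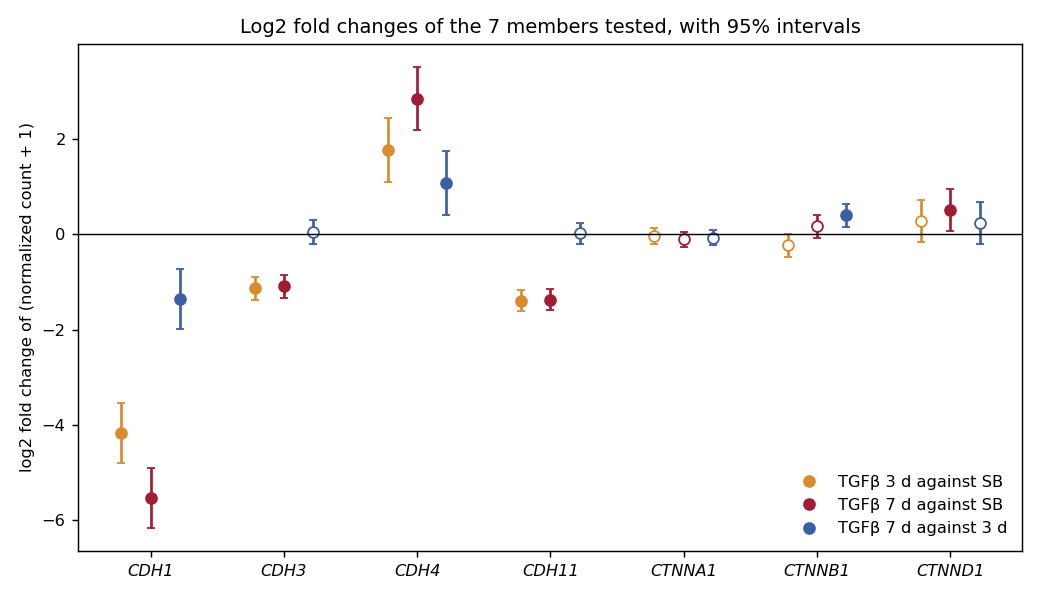
Log2 fold changes of (normalized count + 1) for the 7 members tested, in 3 comparisons, with 95% intervals from limma and filled points where the adjusted p was past the threshold. CDH1 reaches -5.54 and CDH4 reaches 2.85 at 7 days against SB, while the intervals of CTNNA1 include 0 in the 3 comparisons.

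The summed cadherins per kb were set against CTNNB1 per kb within each library. The ratio was 0.731 and 0.709 in SB, 0.311 and 0.332 at 3 days, and 0.251 and 0.244 at 7 days. It was lower in each TGFβ library than in SB, and lower at 7 days than at 3 days with no overlap. Per kb of the longest transcript, the ratio was 0.545 and 0.528 in SB, 0.233 and 0.248 at 3 days, and 0.187 and 0.183 at 7 days. From 3 days to 7 days the cadherin sum did not fall (means of 531 and 543 per kb), while CTNNB1 went from 1655 to 2191 per kb. The lower ratio at 7 days than at 3 days thus follows CTNNB1, whose rise was not past the threshold in all fits.

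Other catenins and armadillo partners formed a list of 7 genes, of which 4 were tested, and 3 of the 4 were past the threshold in each comparison. The share over all genes was 29.0% at 3 days, 54.5% at 7 days and 33.2% between the time points. The list median was -0.55, -0.61 and 0.01 in that order. JUP, which encodes plakoglobin (γ-catenin), the close relative of β-catenin that joins both classical and desmosomal cadherins, was the 1 that rose. It had 1271 and 1803 normalized counts in SB, 3186 and 4297 at 3 days, and 9451 and 7419 at 7 days, with no overlap between groups. Its log2 fold change was 1.29 at 3 days (limma adjusted p = 0.000174), 2.47 at 7 days (adjusted p = 3.72e-07) and 1.18 between the time points (adjusted p = 0.000588). Per kb, JUP made up 13.1% and 14.1% of JUP and CTNNB1 in SB, 27.4% and 35.2% at 3 days, and 47.2% and 40.1% at 7 days. Per kb of the longest transcript, this share was smaller, at 8.13% and 8.79% in SB, 18.1% and 24.2% at 3 days, and 34.4% and 28.2% at 7 days. CTNNAL1 (α-catulin), a relative of α-catenin, fell from 5840 and 4558 in SB to 3229 and 2888 at 3 days and to 1137 and 1148 at 7 days (log2 fold change -2.17 at 7 days, limma adjusted p = 3.72e-08). PKP4, a relative of p120-catenin, fell by 0.60 (log2) over 7 days (adjusted p = 0.000132). ARVCF, another relative of p120-catenin, had 40 and 82 normalized counts in SB and from 22 to 47 under TGFβ, and did not pass the threshold.

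E-box repressors of CDH1 were a list of 7 genes, of which 5 were in the table and 4 were tested. SNAI1, SNAI2 and ZEB1, zinc finger factors that bind E-boxes and repress CDH1 in many epithelial cells, rose relative to SB at both time points, and TCF3, which encodes the helix-loop-helix protein E47, fell (list median 1.36 at 3 days and 1.44 at 7 days). All 4 genes tested were thus past the threshold at both times, where 29.0% and 54.5% of all genes were. TCF3 had 2248 and 2431 normalized counts in SB, 1665 and 1905 at 3 days, and 1805 and 1472 at 7 days. SNAI1 had 51 and 68 normalized counts in SB, 196 and 247 at 3 days, and 359 and 276 at 7 days. SNAI2 had 1640 and 1125 in SB, 4996 and 4621 at 3 days, and 4227 and 4418 at 7 days. ZEB1 had 2702 and 2567 in SB, 5073 and 4770 at 3 days, and 5898 and 6223 at 7 days. The 3 rising genes thus lay above both SB libraries in each TGFβ library, with log2 fold changes at 7 days of 2.40 for SNAI1, 1.67 for SNAI2 and 1.20 for ZEB1 (limma adjusted p from 3.34e-07 to 2.19e-06). Between 7 days and 3 days, ZEB1 was the only one of the 4 past the threshold (0.30, adjusted p = 0.0181), or 25% of the list against 33.2% of all genes. TCF4 was listed at 0 in all 6 libraries.

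Nectins and actin linkers of the adherens junction were a list of 11 genes, with 10 tested. At 3 days 4 rose, 3 fell and 3 did not pass, and at 7 days 6 rose, 3 fell and 1 did not pass (median log2 fold change 0.35, against -0.00081 over all genes). These are 70% and 90% of the genes tested, against 29.0% and 54.5% of all genes. PVRL4, the older symbol of NECTIN4, an adhesion receptor of the immunoglobulin family, had 1 and 2 normalized counts in SB, 45 and 42 at 3 days, and 312 and 292 at 7 days. It rose by 2.77 on the log2 scale between 3 days and 7 days (standard error 0.30, limma adjusted p = 7.62e-05). The SB level is too low for a fold, and PVRL4 reached the mean of 10 only through the TGFβ libraries. PVRL1, the older symbol of NECTIN1, rose by 0.60 at 3 days (adjusted p = 0.00118). VCL, which encodes vinculin, an actin linker that α-catenin recruits under tension, rose from 15211 and 15322 to 19202 and 19174 at 3 days (log2 fold change 0.33, limma adjusted p = 0.00549). AJUBA, a LIM protein of the junction, fell from 3761 and 3420 to 1269 and 1288 at 7 days (-1.49, adjusted p = 1.26e-07), and LIMA1, an actin-binding partner of α-catenin, fell by 0.81 (adjusted p = 1.34e-05).

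FAT, Dachsous, Flamingo and protocadherin genes, more distant relatives that share the extracellular cadherin repeats, were a list of 22, with 21 in the table and 14 tested. At 3 days 3 rose and 3 fell (median -0.02), and at 7 days 9 rose and 4 fell (median 0.66), which is 42.9% and 92.9% of the genes tested, against 29.0% and 54.5% of all genes. CLSTN2, 1 of these 9, had 5 and 4 normalized counts in SB, 1 and 2 at 3 days, and 29 and 25 at 7 days. It reached the mean needed for the test only through the 7-day libraries, so the filter favored its call. PCDH1 (protocadherin 1), known from airway epithelium, had 44 and 56 normalized counts in SB, 1221 and 1475 at 3 days, and 5561 and 4873 at 7 days. Its rise, 4.73 on the log2 scale at 3 days (standard error 0.15, limma adjusted p = 1.47e-09) and 6.68 at 7 days (adjusted p = 2.73e-11), was larger than the 2.85 of CDH4, the highest among the members tested. CELSR1, a planar polarity cadherin, rose by 1.81 at 7 days (adjusted p = 4.20e-07), and CLSTN1, a calsyntenin, rose by 0.68 (adjusted p = 3.92e-05). FAT1 fell by 0.51 at 3 days (adjusted p = 0.00974), and CELSR3 rose by 0.64 between 3 days and 7 days (adjusted p = 0.0117). The largest falls of the list were in PCDH7 and PCDH8, at lower levels. PCDH7 had 203 and 159 normalized counts in SB, 36 and 44 at 3 days, and 9 and 15 at 7 days. PCDH8 had 136 and 196 in SB, 43 and 48 at 3 days, and 69 and 47 at 7 days. Their log2 fold changes at 7 days were -3.84 and -1.50 (limma adjusted p = 7.60e-07 and 0.000435).

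Genes of β-catenin degradation and its nuclear partners were a list of 20, all tested. At 3 days 2 rose and 1 fell, or 15% of the list, against 29.0% of all genes. At 7 days 8 rose and 2 fell, or 50%, against 54.5% of all genes, with list medians of -0.03 and 0.22. TCF7, which encodes the β-catenin partner TCF1, had 145 and 128 normalized counts in SB, 521 and 578 at 3 days, and 1894 and 1835 at 7 days (log2 fold change 3.76 at 7 days, limma adjusted p = 7.14e-10). AXIN1, the scaffold of the degradation complex, fell by 1.42 at 7 days (adjusted p = 1.81e-05), and GSK3B, its kinase, rose by 0.50 at 3 days (adjusted p = 0.000780). BCL9, a coactivator of β-catenin, rose by 0.90 at 7 days (adjusted p = 0.000617). AXIN2, a relative of AXIN1, had 8 and 18 normalized counts in SB, 16 and 10 at 3 days, and 76 and 68 at 7 days. Its log2 fold change at 7 days was 2.48 (adjusted p = 0.000279).

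Genes of cadherin cleavage and turnover and cadherin-associated phosphatases were a list of 14, all tested. At 3 days 5 rose and 1 fell (median 0.10), and at 7 days 7 rose and 2 fell (median 0.28). These are 42.9% and 64.3% of the list, against 29.0% and 54.5% of all genes. PTPRM and PTPRK, receptor phosphatases found at cadherin contacts, rose at 3 days by 0.67 and 0.57 on the log2 scale (limma adjusted p = 0.000238 and 0.000343). PTPRM had 851 and 842 normalized counts in SB, 1341 and 1355 at 3 days, and 1818 and 1879 at 7 days. NUMB, an endocytic adaptor, rose by 0.90 at 7 days (adjusted p = 2.84e-06), and NCSTN, a subunit of the γ-secretase that cleaves cadherin stubs, rose by 0.82 (adjusted p = 6.80e-06). PTPRJ rose by 0.79 between 3 days and 7 days (adjusted p = 0.000102). Relative to SB it was lower at 3 days (-0.39, adjusted p = 0.00661) and higher at 7 days (0.40, adjusted p = 0.00261).

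**Figure D4:**
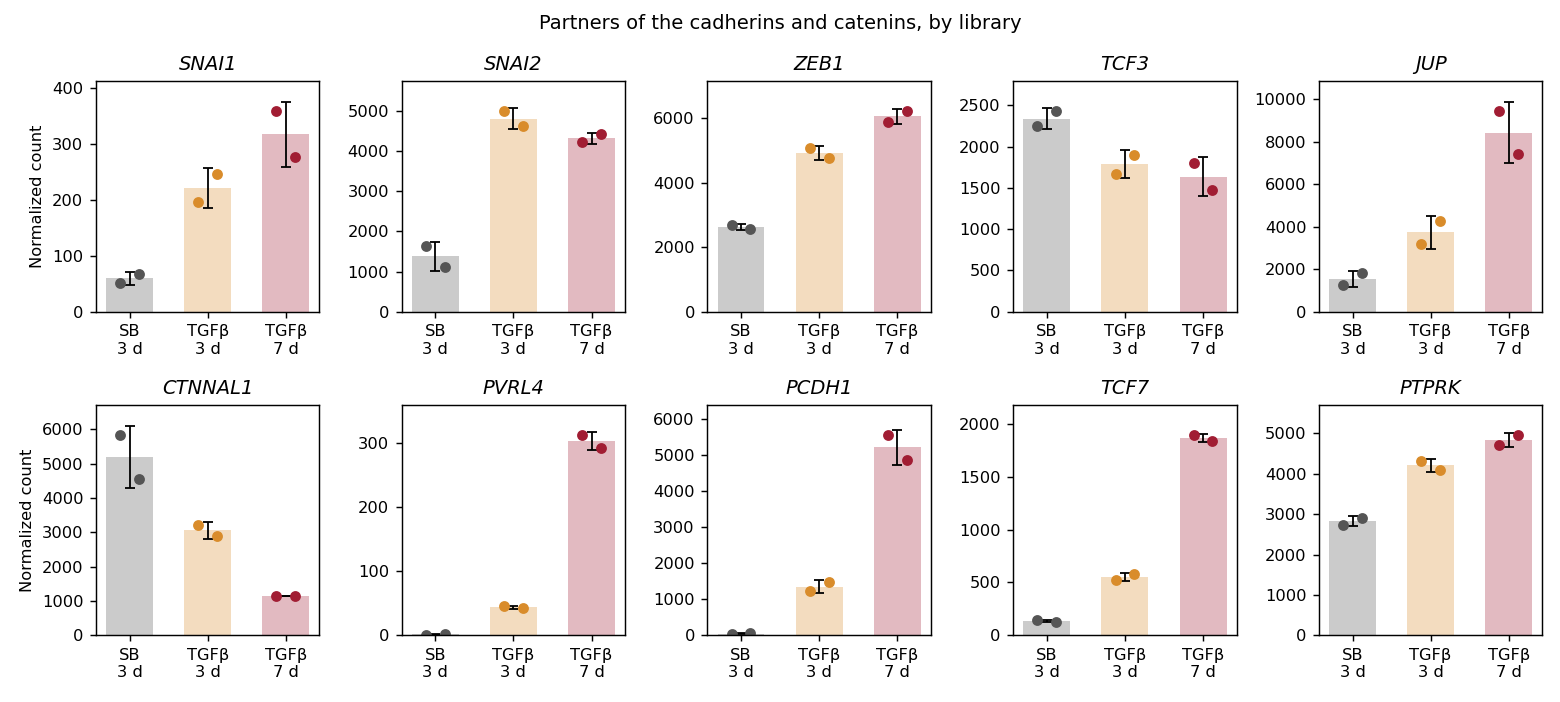
Normalized counts of 10 partner genes in H2087-LCC cells, 1 panel per gene, with points for the 2 libraries of each group, bars for their mean and error bars for the SD (n = 2). SNAI1, SNAI2, ZEB1, JUP, PVRL4, PCDH1, TCF7 and PTPRK stand higher in the TGFβ libraries than in SB, and TCF3 and CTNNAL1 stand lower.

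The genes whose pattern over the 6 libraries was nearest to that of CDH1, by Euclidean distance of gene-centered log2 values among 11383 genes averaging 100 normalized counts or more, were C16orf89 (distance 0.783), CEACAM6 (0.835), VSIG1 (0.904), DNAH2 (1.02) and CAPN8 (1.16). CEACAM6, a surface glycoprotein of epithelial cells, had 6573 and 9563 normalized counts in SB, 270 and 262 at 3 days, and 127 and 163 at 7 days. VSIG1, an adhesion protein of the immunoglobulin family, had 4556 and 5305 in SB and 100 and 102 at 7 days. No such ranking was made for CDH2, which was not tested.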

How the data were processed

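RNA-seq read pairs were mapped by the authors to hg19 with STAR and assigned to genes with HTSeq 0.6.1p1 at default settings, per the methods and the submitters' processing notes, which also name FastQC 0.11.5 and DESeq2. The annotation release is not given in the sources used here. The deposited table, recorded under the unit score, holds counts normalized by library size and rounded to whole numbers. Raw counts are not used here, so the negative binomial test of the study was replaced by limma 3.58.1 (R 4.3.3) on log2(value + 1) in one fit of 6 libraries, with a trend on expression and 3 residual degrees of freedom. Genes averaging 10 or more over the libraries were tested. The fit was tried on simulated data in which 200 genes differed from SB by a factor of 2 or 4. Of these, 175 were called at 3 days and 170 at 7 days, with 7 and 8 unchanged genes called. The simulated noise was independent between libraries, unlike the deviations shared between libraries in the data. No change between 7 days and 3 days was simulated, so it says nothing on finding such changes. The kit does not mark strand, so reads from antisense genes cannot be told apart. The depth per library is an estimate from the spacing of low values.

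The 10 members and the 7 lists (97 symbols, 90 in the table) were chosen with earlier results of these data known. Shares of members or list genes past the threshold, set against all genes, are therefore given as a description. From each list the text names up to 3 genes per comparison with the largest change past the threshold and a mean of at least 100, every E-box repressor of CDH1, the 5 genes nearest to CDH1, and genes that bear on a result directly. VCL, ARVCF, CDH5, CDH23, CDH26, CLSTN2, AXIN2, PCDH7 and PCDH8 were chosen after their values were seen. Alternatives were other pseudocounts, filters and scalings, limma without the trend, fewer libraries, the replicate number as a block and a fold threshold. Gene lengths and coordinates are from GENCODE v44lift37 on GRCh37, and promoters from RefSeq on GRCh38.p14. Figures were drawn with matplotlib 3.10.9.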

Additional observations from a re-analysis of the deposited data

Results flagged for a closer look

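The level under TGFβ differed between 7 days and 3 days for 3 members, by the limma test of the 2 time points. The SB libraries cancel out of this comparison, and there is no SB group at 7 days. Length of treatment and time in culture therefore cannot be told apart in it. For CDH1 the value at 7 days less that at 3 days was -1.36 on the log2 scale, for CDH4 it was 1.08 and for CTNNB1 it was 0.41. Of these, only that of CDH1 stayed past the threshold in each of the 6 fits that left out 1 library (adjusted p from 0.00269 to 0.0289). The CTNNB1 differences from SB at 3 days and 7 days lay on either side of 0, at -0.23 and 0.17, and neither was past the threshold. Groups of 2 libraries are too small for a test of single libraries that stand apart.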

How the results depend on the processing

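The calls of CDH1, CDH3 and CDH11 relative to SB held in each of the 18 fits, with log2 fold changes at 7 days from -5.92 to -5.08 for CDH1, from -1.20 to -0.98 for CDH3 and from -1.54 to -1.21 for CDH11. Those of CDH4 held in each of the 17 fits that tested it, and a mean of at least 50 left it untested. In the main fit CDH4 reached the mean needed for the test only through the TGFβ libraries, so the filter favored its entry. The 17 fits include the one without the filter on low values, where CDH4 did not depend on that entry. Of 354 values for single members, 330 kept their direction and their side of the threshold, 18 lost a call, 2 gained one and 4 changed sign. The sign changes were in values near 0 with 1 library left out. CTNNB1 at 7 days against SB was -0.0181 without the first SB library (up to 0.36 in the other such fits). Between the time points, CDH3 was -0.0154 without the first 3-day library (up to 0.11), and CDH11 was -0.00156 without the second 3-day library and -0.00397 without the second 7-day library (up to 0.0449). With 1 library left out, the number of members past the threshold between the time points was 1 to 3, with 1 without the second 3-day, the first 7-day or the second 7-day library, and that of list genes 15 to 36, with 19, 16 and 15 without the first 3-day, the first 7-day and the second 7-day library. Where a log2 difference beyond 1 in size was asked for too, 9 of the 30 list genes remained at 3 days, 19 of 49 at 7 days and 9 of 29 between the time points. With the length of the longest transcript in place of the exon union, CDH11 made up 79.7%, 79.7% and 79.3% of the member cadherins in SB, at 3 days and at 7 days, and CDH1 4.07%, 0.565% and 0.203%. The scalings moved the median of all genes by 0.0556 at most, and equal library totals turned the balance of calls at 3 days from 2149 higher and 2021 lower to 1819 and 2552.

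Same-numbered libraries did not deviate together in all pairs of groups (r of 0.21, -0.13 and -0.65 over 11389 genes). With 2 libraries a group, the deviations within a group mirror each other. The r of -0.65, between 3 days and 7 days, thus means that libraries of opposite number deviated together there. What those libraries share was not tested, and the main fit does not model it. With the replicate block, 4, 4 and 3 members and 29, 48 and 27 list genes were past the threshold at 3 days, at 7 days and between the time points. With the 7-day numbers exchanged, chosen after seeing the data, these counts were 4, 5 and 3 members and 33, 52 and 41 list genes. At about 32000000 reads or more per library, genes such as CDH2, CDH6 and CDH13 with 0 to 2 normalized counts cannot be compared.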
